A study of Mus musculus with 6 samples.

Results

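Regulatory T (Treg) cells and T helper 17 (Th17) cells of wild-type mice were compared directly, library against library, over every gene with at least 10 counts in 2 of the 4 libraries. This rule kept 14891 of the 54532 genes in the deposited table, of which 12616 reached 10 counts in all 4 libraries, 516 did so only in Treg libraries and 693 only in Th17 libraries. The Treg and the Th17 group held 2 libraries each, numbered 1 and 5 in the table, and 2 libraries of naive T cells entered the model only to estimate the spread. All groups shared the wild-type genotype, the label thymus as tissue and the entry "no" for treatment. The sources used here do not give ages, strains or whether a library stands for 1 animal or a pool. Nor do they tell whether the cells were sorted or grown in culture, so a difference in how they were obtained cannot be told apart from a difference between the types. Separate animals or cultures are not stated for the 2 libraries of each type, and the p-values therefore reflect only the spread between libraries, which may be technical.

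Treg and Th17 cells both arise from CD4 T cells, and transforming growth factor beta takes part in the formation of both in the mouse. The transcription factor Foxp3 fixes the Treg program, which restrains immune responses, whereas Th17 cells secrete interleukin-17 and related cytokines at barrier tissues. The pair is a classical example of opposed fates.

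Levels are given as CPM, the counts of a gene relative to library size scaled by the trimmed mean of M values (TMM), in library 1 and then in library 5. A log2 fold change is Treg minus Th17 and stands with its standard error (SE). A gene is said to be called, or to be higher in a type, when its Benjamini-Hochberg adjusted p over all 14891 genes was under 0.05 in edgeR's quasi-likelihood test. Total counts of the 6 libraries ran from 16458939 to 17901331. Log CPM correlated across genes at r = 0.986 between the libraries of each type and at 0.869 to 0.876 between a Treg and a Th17 library, where genes are not independent replicates. At the limit of the rule, 0610005C13Rik had 12 and 6 counts in Treg and 8 and 10 in Th17 libraries, and 1110013H19Rik had 10 and 13 against 9 and 9, while 0610009E02Rik (4 and 10 against 8 and 9) and 1110020A21Rik (10 and 9 against 2 and 8) fell outside it.

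Foxp3 had the smallest p-value of all genes tested. Its level was 1001 and 999.5 CPM in the Treg libraries and 0.898 and 0.478 CPM in the Th17 libraries. The log2 fold change was 10.49 ± 0.29 (edgeR adjusted p = 4.07e-11). On the other side, Il17a was at 326 and 494 CPM and Il17f at 2172 and 2181 CPM in Th17 libraries, with 0 counts of Il17a and 1 count of Il17f in the Treg libraries together. Each library thus carried the defining genes of its label.

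The difference was broad. Of the 14891 genes, 5995 were called (40.3%), 2968 higher in Treg cells (19.9%) and 3027 higher in Th17 cells (20.3%). At 2-fold or more there were 1704 called genes higher in Treg and 1972 higher in Th17 cells, and at 8-fold or more there were 458 and 558. The median log2 fold change of all genes tested was 0.01, a value that the scaling sets close to 0. The libraries of the types did not overlap for 11020 genes (74.0%), so a gene higher in every library of a type was common. A gene that passed the count rule through 1 type alone had to differ, and counts over lists include such genes. Every count over a list is to be read beside the 19.9% and 20.3% of all genes tested. RNA was measured in bulk, so more cells that carry a transcript and more of it per cell cannot be told apart here or below. The plot of mean levels shows how far the lineage genes lie from the rest.

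**Figure D1:**
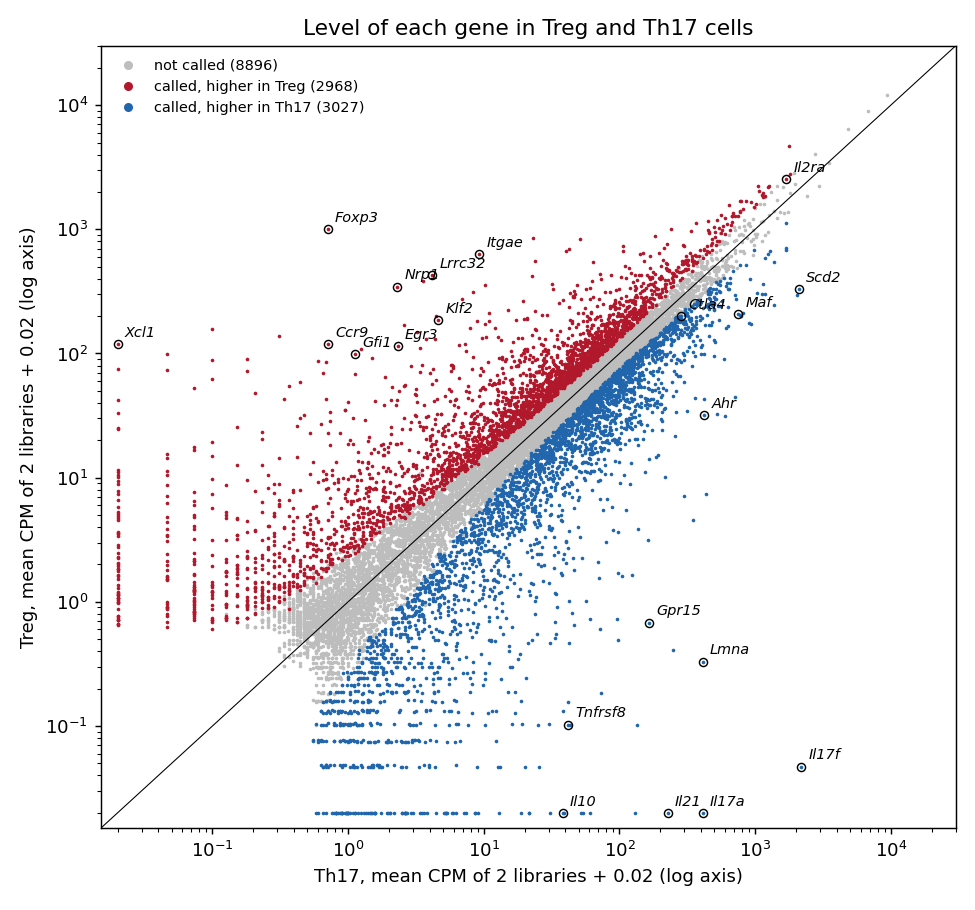
Mean level of each of the 14891 genes in Th17 (horizontal axis) and Treg cells (vertical axis), in CPM plus 0.02 on log axes, with called genes in colour and named genes circled. Foxp3, Nrp1, Lrrc32 and Itgae lie far above the line of equal levels, Il17f, Lmna, Gpr15 and Il17a far below it, and Il2ra and Ctla4 close to it.

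Among 27 tested genes of a Treg signature, 15 were higher in Treg and 6 higher in Th17 cells, with a median log2 fold change of 0.63. Of the 27, 2 passed the count rule only through Th17 and 1 only through Treg libraries, so their direction was fixed by that rule. The transcription factor Ikzf2 (Helios) reached 25.5 and 37.0 CPM in Treg and 2.69 and 3.61 CPM in Th17 libraries, and its relative Ikzf4 (Eos) reached 343 and 325 against 62.1 and 59.7 CPM. Both Ikaros family genes were thus higher in every Treg library, at log2 fold changes of 3.31 ± 0.29 and 2.46 ± 0.16. Lrrc32, which encodes the surface anchor GARP for latent transforming growth factor beta, was at 415 and 445 CPM in Treg and 4.91 and 3.40 CPM in Th17 libraries. Nrp1, which encodes the semaphorin receptor neuropilin-1, stood at 344 and 347 against 1.90 and 2.65 CPM. Both were detected in Th17 cells only at a few CPM, and the log2 fold changes were 6.69 ± 0.24 and 7.24 ± 0.22. The receptor gene Gpr83 (6.75), the folate receptor 4 gene Izumo1r (5.31) and Nt5e, whose product CD73 forms adenosine from AMP (4.03), gave log2 fold changes of like direction.

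Several genes often used to mark Treg cells were shared or turned the other way. Il2ra, the alpha chain of the interleukin-2 receptor, was at 2655 and 2392 CPM in Treg and 1742 and 1644 CPM in Th17 libraries, so it was among the abundant transcripts of both. The libraries did not overlap, like those of 74.0% of all genes tested. The log2 fold change was 0.58 ± 0.20 (edgeR adjusted p = 0.0316). It ran from 0.50 to 0.64 with 1 of the 4 libraries left out, and leaving out any of them ended the call. Ctla4, the inhibitory receptor, was higher in Th17 cells, at 242 and 331 against 185 and 213 CPM. Its log2 fold change was -0.52 ± 0.18 (edgeR adjusted p = 0.0348), and the call ended without Treg library 1 (adjusted p = 0.233), Treg library 5 (0.0715) or Th17 library 5 (0.351). The costimulatory receptors Icos and Tnfrsf4 (OX40) were also higher in Th17 cells, with log2 fold changes of -1.38 ± 0.17 and -0.98 ± 0.15. Tnfrsf18 (GITR) was not called, and the 95% interval of its log2 fold change ran from -0.37 to 0.45. Entpd1, which encodes CD39, was low in both types, with an interval from -0.90 to 0.68.

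Il10 and Ebi3, genes of suppressive cytokines, were higher in Th17 cells. Il10 had 0 counts in both Treg libraries and 53.1 and 23.3 CPM in the Th17 libraries. Set against 3 counts in each Treg library as a floor, this made a difference of at least 230.0-fold. Ebi3, a subunit of interleukin-27 and interleukin-35, was at 25.3 and 35.5 CPM in Th17 and 0.113 and 0.0540 CPM in Treg libraries. The 3 Treg counts behind it gave a ratio of 366 (exact 95% interval 125 to 1777), where intervals and floors cover counting error only. Both genes passed the count rule only through Th17 libraries, so their direction was fixed by that rule. Fgl2, a fibrinogen-like secreted protein, was 13.5 and 11.8 CPM in Th17 and 5.33 and 6.59 CPM in Treg libraries, a call that ended without Treg library 1 (edgeR adjusted p = 0.0758) or Th17 library 1 (0.0566).

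Among 29 tested genes of a Th17 signature, 21 were higher in Th17 and 4 higher in Treg cells, with a median log2 fold change of -2.85. Of the 29, 9 passed the count rule only through Th17 and 1 only through Treg libraries, so their direction was fixed by that rule. The nuclear receptor gene Rora was at 188 and 222 CPM in Th17 and 28.1 and 28.6 CPM in Treg libraries. It was detected in Treg cells but was lower there in both libraries, with a log2 fold change of -2.85 ± 0.21. Other factors of the Th17 program followed. The activator Batf changed by -3.47 ± 0.18, Maf by -1.86 ± 0.16 and Irf4 by -1.55 ± 0.18, all higher in Th17 cells. Runx1, a factor that partners with both lineages' regulators, was higher in Treg cells instead (1.37 ± 0.16). Nfkbiz, which encodes the nuclear protein IkappaB-zeta, was higher in Treg cells too (1.00 ± 0.16).

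The cytokine genes were nearly silent in Treg cells. Il17a was at least 2468-fold higher in Th17 cells, and Il21, which feeds back on the same cells, at least 1367-fold. Il22, a cytokine that acts on epithelia, was at 27.4 and 76.5 CPM and Il9 at 45.7 and 15.7 CPM in Th17 libraries. These differed between the Th17 libraries, and all 4 genes had 0 counts in both Treg libraries. Il17f was the most abundant of them, at 2172 and 2181 CPM in Th17 libraries. Csf2, which encodes GM-CSF, was low in both types, at 1.99 and 1.08 CPM in Treg and 0.211 and 0.955 CPM in Th17 libraries. It was not called, except without Th17 library 5 (edgeR adjusted p = 0.0369).

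Receptor genes of the Th17 signature differed in both directions. Il23r, a chain of the interleukin-23 receptor, stood at 13.7 and 11.9 CPM in Th17 libraries against a single count in Treg libraries, a ratio of 463 (exact 95% interval 82.7 to 18321). Il1r1, the signalling receptor for interleukin-1, was at 37.6 and 38.7 against 0.170 and 0.0540 CPM. Neither receptor gene reached more than 3 counts in a Treg library. The leukotriene B4 receptor gene Ltb4r1 was at least 365-fold higher in Th17 cells. The shared receptor chain gene Il6st, which encodes gp130, was higher in Treg cells (1.45 ± 0.21), while Il6ra, the specific alpha chain for interleukin-6, was higher in Th17 cells (-1.28 ± 0.17). Genes of the aryl hydrocarbon receptor went with the Th17 side for 5 of 9 tested members, against 1 of 9 for Treg cells, which became 0 without Treg library 1 or Th17 library 1 and 2 without Th17 library 5. Ahr itself was at 404 and 439.7 CPM in Th17 and 29.3 and 34.7 CPM in Treg libraries, and its target Cyp1b1, a monooxygenase gene, changed by -2.85 ± 0.18.

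**Figure D2:**
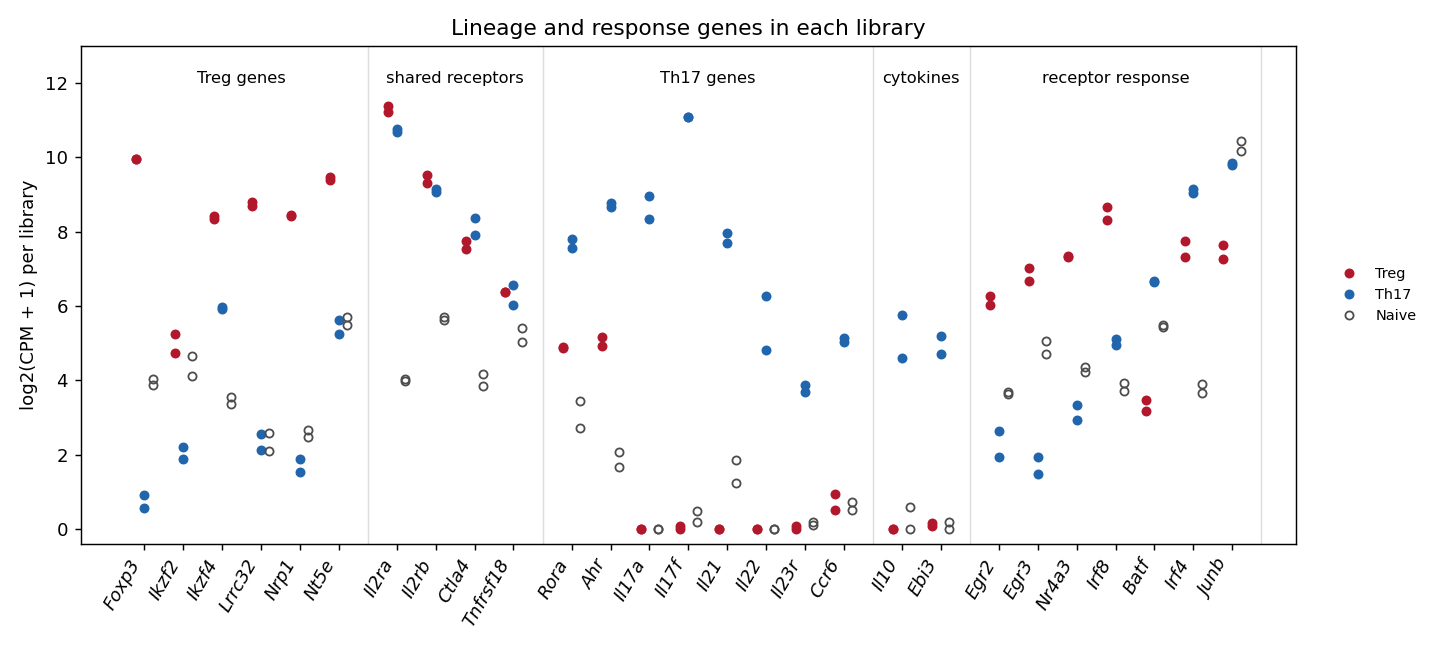
Level of lineage and response genes in each library as log2(CPM + 1), with 2 points per cell type and naive T cells for reference. Foxp3, Lrrc32 and Nrp1 separate Treg from Th17 libraries by 6 log2 units or more, Il2ra and Ctla4 lie close together, and Il10 and Ebi3 are seen in Th17 libraries.

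Regulators of other helper T cell fates were mixed, with 5 of 15 tested genes higher in Treg and 5 higher in Th17 cells (33.3% each). The shares of all genes tested were 19.9% and 20.3%. Gata3, the Th2 regulator, was at 29.0 and 34.0 CPM in Treg and 2.27 and 5.41 CPM in Th17 libraries. Tbx21, which encodes the Th1 regulator T-bet, was at 12.4 and 10.1 against 0.898 and 0.372 CPM. Both were higher in both Treg libraries. Of the genes higher in Th17 cells, Ccr4 had a log2 fold change of -2.57 ± 0.20 and Il12rb2, a receptor chain for interleukin-12, was at 10.8 and 36.9 CPM in Th17 and 0.965 and 1.03 CPM in Treg libraries. Bcl6, the follicular helper regulator, was not called, with a 95% interval from -0.52 to 0.32. Ifng and Il4 did not pass the count rule.

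Interleukin-2 signals through STAT5 and sustains Treg cells. Of 20 tested response genes, 10 were higher in Treg and 4 in Th17 cells, with a median of 0.51. The feedback inhibitor gene Socs2 was at 550.0 and 545 CPM in Treg and 86.8 and 39.7 CPM in Th17 libraries. The Th17 libraries differed from each other more than 2-fold, and the log2 fold change of 3.11 ± 0.29 became 3.79 without Th17 library 1. The cytokine gene Lta changed by 2.01 ± 0.18, higher in Treg cells. Cish, another STAT5 feedback gene, was higher in Treg cells too (0.62 ± 0.17), a call that ended without Treg library 5 (edgeR adjusted p = 0.0809) or Th17 library 1 (0.0698). Higher in Th17 cells were the kinase gene Pim2 (-3.03 ± 0.22) and the cell cycle inhibitor gene Cdkn1a (-1.96 ± 0.18). Il2rb, the beta chain of the receptor, was not called, with a 95% interval from -0.05 to 0.68.

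In the transforming growth factor beta list, 11 of 21 tested genes were higher in Treg and 3 in Th17 cells (median 0.70). The receptor gene Tgfbr1 was at 267 and 352 CPM in Treg and 46.2 and 40.6 CPM in Th17 libraries, and Tgfbr2 at 421 and 383 against 163 and 184 CPM. Both receptor chains were higher in every Treg library, by 2.83 ± 0.18 and 1.21 ± 0.17 on the log2 scale. The inhibitory Smad7 (1.53 ± 0.18) and the receptor-regulated Smad3 (0.80 ± 0.15) were higher with them, as was the ubiquitin ligase gene Smurf1 (1.66 ± 0.17). The ligand gene Tgfb1 was not called, with a 95% interval from -0.49 to 0.19. Bhlhe40, a transcriptional repressor gene, was higher in Th17 cells (-0.87 ± 0.17).

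Antigen receptor signals induce Egr and Nr4a transcription factors within minutes to hours. In that list 15 of 27 tested genes were higher in Treg and 6 higher in Th17 cells (median 1.06). Egr3 was at 129.7 and 100.3 CPM in Treg and 2.80 and 1.80 CPM in Th17 libraries, Egr2 at 75.9 and 64.3 against 5.18 and 2.81 CPM, and Nr4a3 at 161 and 159.9 against 6.60 and 9.13 CPM. None of these overlapped between types, like 74.0% of all genes tested. The log2 fold changes were 5.64 ± 0.26, 4.13 ± 0.26 and 4.35 ± 0.20. Nr4a1 changed less (1.31 ± 0.18). The feedback gene Spry1, an inhibitor of receptor tyrosine kinase signals, was higher in Treg cells by 4.72 ± 0.28 and Irf8 by 3.51 ± 0.19. Other genes that receptor signals raise went the opposite way. Irf4 was higher in Th17 cells, as were the phosphatase gene Dusp4 (-1.83 ± 0.18), the NF-kappaB inhibitor gene Tnfaip3 (-2.36 ± 0.18) and Cd44, a hyaluronan receptor of activated cells (-2.41 ± 0.25). Myc and Cd69 were not called, with 95% intervals from -0.24 to 0.45 and from -0.22 to 0.44.

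The AP-1 family split by member, with 6 of 15 higher in Treg (40.0%) and 4 higher in Th17 cells (26.7%). The shares of all genes tested were 19.9% and 20.3%. Fos was at 17.9 and 18.5 CPM in Treg and 1.53 and 1.91 CPM in Th17 libraries, Jun at 499 and 396 against 124 and 119 CPM. Both were higher in both Treg libraries. Junb was at 929 and 883 CPM in Th17 and 199 and 152 CPM in Treg libraries, and Fosl2 changed by -2.01 ± 0.22, while Batf, named above, and Batf3 (-2.26 ± 0.30) were on the same side. Fos, Fosb, a relative of Fos, and Jun also stand in a list of genes that respond to tissue handling and heat. In it 3 of 19 were higher in Treg cells, those same 3, and 8 of 19 higher in Th17 cells, or 5 without Treg library 5 or Th17 library 1. Among these were the chaperone genes Hsp90aa1 (-1.20 ± 0.22) and Hspa1b (-1.95 ± 0.33, or -2.63 without Treg library 1). The part of sample handling in the AP-1 values was not tested.

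Among 22 genes of the T cell receptor complex and its kinases, 7 were higher in Treg (31.8%) and 5 in Th17 cells (22.7%). The shares of all genes tested were 19.9% and 20.3%, and the list median was 0.22. The Src family kinase gene Fyn changed by 1.41 ± 0.16 and Cd247, the zeta chain, by 1.00 ± 0.19. Cd5, an inhibitory coreceptor, was 792 and 751 CPM in Th17 and 236 and 174 CPM in Treg libraries. Its log2 fold change was -1.91 ± 0.20. Cd4 was higher in Th17 cells (-0.92 ± 0.21), a call that ended without Th17 library 5 (edgeR adjusted p = 0.0809). Trac, the alpha chain constant gene, was not called, with a 95% interval from -0.44 to 0.37. Without Th17 library 5, 3 genes of this list were called higher in Th17 cells in place of 5.

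Checkpoint and costimulatory receptors were divided 11 to 7 of 22. Tnfrsf9 (4-1BB) was at 72.8 and 88.2 CPM in Treg and 4.38 and 7.16 CPM in Th17 libraries, and Pdcd1, which encodes PD-1, at 74.0 and 84.2 against 15.4 and 19.1 CPM. Both were higher in Treg cells in every library, by 3.80 ± 0.24 and 2.20 ± 0.19 on the log2 scale. Tigit was low and uneven, at 13.8 and 7.84 against 0.370 and 2.02 CPM. On the Th17 side, Tnfrsf8, which encodes CD30, was at 37.0 and 46.7 CPM with 3 counts in the Treg libraries, a ratio of 504 (exact 95% interval 172 to 2447). Btla, an inhibitory receptor, changed by -2.18 ± 0.16 and Cd200 by -2.04 ± 0.20. Lag3 was low in both types, with a 95% interval from -0.64 to 0.57.

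Trafficking genes differed in both directions. Of 23 tested chemokine receptor and homing genes, 12 were higher in Treg and 8 higher in Th17 cells. Ccr9, the receptor for the thymic and small intestinal chemokine CCL25, was at 140.0 and 97.9 CPM in Treg and 1.00 and 0.372 CPM in Th17 libraries. Itgae, which encodes the CD103 chain that binds E-cadherin, was at 546 and 715 against 6.39 and 12.2 CPM. The log2 fold changes were 7.42 ± 0.33 for Ccr9, or 8.29 without Th17 library 1, and 6.09 ± 0.29 for Itgae. Klf2, a factor that maintains lymph node homing genes, was at 204 and 165 against 3.80 and 5.36 CPM. It was lower in both Th17 libraries. S1pr1, the receptor used to leave lymphoid organs, changed by 0.85 ± 0.17, and Ccr7 was not called, with a 95% interval from -0.10 to 0.68.

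Other members of the list were higher in Th17 cells. Gpr15, a colon homing receptor, was at 149 and 180.1 CPM in Th17 and 0.511 and 0.811 CPM in Treg libraries, a log2 fold change of -7.94 ± 0.26. Ccr6, the receptor for CCL20, was at 34.5 and 31.9 against 0.908 and 0.432 CPM, and the gene of its ligand, Ccl20, at 76.5 and 37.4 against 1.30 and 0.703 CPM. Ccr6 changed by -5.63 ± 0.34, or -6.24 without Treg library 1. Cxcr6, the receptor for CXCL16, reached 36.9 and 54.0 CPM in Th17 libraries, against 2.21 and 2.22 CPM in Treg libraries. The bar plot of homing genes sets members side by side.

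**Figure D3:**
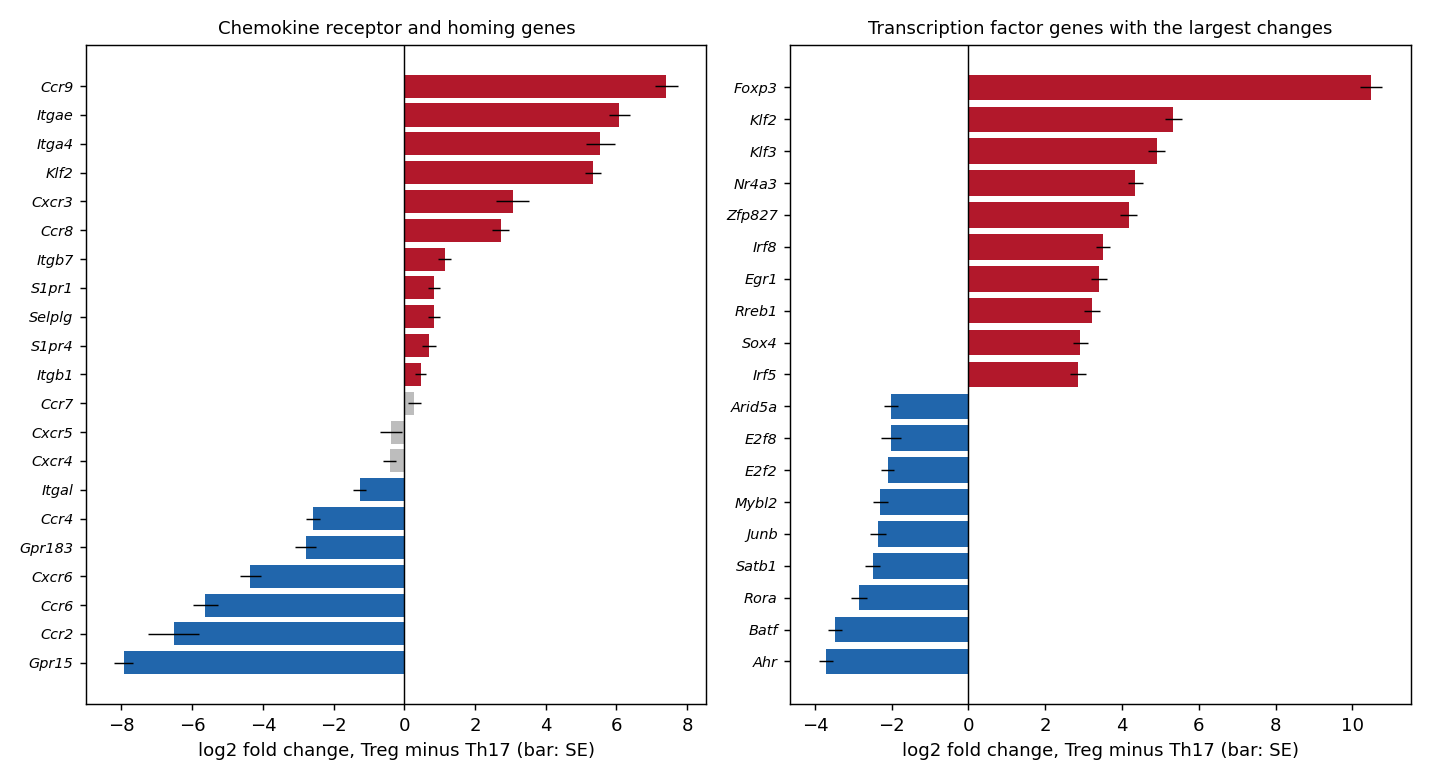
Log2 fold change (Treg minus Th17) with its SE for 21 of the 23 tested chemokine receptor and homing genes (left) and for 19 of the 20 transcription factor genes with the largest changes among those above the median level of all genes (right). Red bars were higher in Treg cells, blue bars higher in Th17 cells and grey bars not called, and Ccr9 and Gpr15 mark the ends of the left panel.

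Of 19 genes of naive or quiescent T cells, 8 were higher in Treg and 5 higher in Th17 cells. Klf3 was at 134 and 127 CPM in Treg and 3.33 and 5.36 CPM in Th17 libraries, and Foxp1, a factor of T cell quiescence, changed by 1.53 ± 0.16. Satb1, a chromatin organizer, was 1339 and 1429 CPM in Th17 and 248 and 243 CPM in Treg libraries, and Il7r, the interleukin-7 receptor gene, 191 and 331 against 45.8 and 54.6 CPM. These 4 genes did not overlap between types, like 74.0% of all genes tested. Tcf7, which encodes TCF-1, was higher in Th17 cells (-1.11 ± 0.26), a call that ended without Treg library 5 (edgeR adjusted p = 0.0708) or Th17 library 5 (0.0627). Without either of those libraries 2 genes of the list, in place of 5, were called higher in Th17 cells. Foxo1 and Bach2 were not called, with 95% intervals from -0.38 to 0.37 and from -0.49 to 0.35.

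Genes of cell division were higher in Th17 cells. All 28 tested mitosis genes were called higher there, with a median log2 fold change of -2.12, and the count was also 28 without any 1 of the 4 libraries. Mki67, the Ki-67 antigen gene, was at 1109.9 and 1155 CPM in Th17 and 234 and 374 CPM in Treg libraries, and Top2a, a topoisomerase of dividing cells, at 1197 and 1149 against 216 and 387 CPM. The motor gene Cenpe, which attaches chromosomes to the spindle, was at 198 and 205 against 20.4 and 39.3 CPM. Treg library 5 lay above Treg library 1 in the sum of the list (1142 and 1938 CPM), while the Th17 libraries were alike (6435 and 6333 CPM). The log2 fold changes of Cenpe, Kif23 (a motor of cytokinesis) and Ccnb1 (cyclin B1) were -2.75 ± 0.24, -2.69 ± 0.22 and -2.60 ± 0.24.

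DNA replication genes gave 23 of 28 higher in Th17 cells (median -1.06), and 17 without Treg library 1. Rrm2, a subunit of ribonucleotide reductase, changed by -2.11 ± 0.22 and the replication factor gene Mcm10 by -1.99 ± 0.23. Pcna and Mcm6 were not called, with 95% intervals from -0.87 to 0.06 and from -0.19 to 0.50. Of 22 cell cycle regulators, 13 were higher in Th17 cells. These comprised both drivers, such as E2f2 (-2.10 ± 0.17) and Cdk6 (-1.08 ± 0.17), and brakes, such as Cdkn1a, named above, and Rb1 (-1.46 ± 0.16). In these 3 lists no gene was called higher in Treg cells by edgeR, DESeq2 or limma-voom, and 0 were higher there at an unadjusted p under 0.05 in edgeR.

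The promoters of the mitosis genes are shown because their members moved together. Many such genes carry the cell cycle homology region (CHR, TTTGAA) and CCAAT boxes. Within 250 bases before to 50 after the RefSeq start (GRCm38.p6), searched on both strands, both motifs were found in 17 of the 23 mitosis genes with a window (73.9%) and in 5.94% of the 10145 genes tested that had one. A match of letters is a description and not a bound site. The genes shown were picked by size of change from called list members with both motifs in the bases printed. They thus carry the motifs by choice. The 150 bases before the start are given 5′ to 3′ on the gene's strand, with CHR and CCAAT letters of either strand in capitals, for Prc1 (chr7:80294326-80294475, plus strand), Espl1 (chr15:102296143-102296292, plus strand) and Ube2c (chr2:164769779-164769928, plus strand).
Prc1: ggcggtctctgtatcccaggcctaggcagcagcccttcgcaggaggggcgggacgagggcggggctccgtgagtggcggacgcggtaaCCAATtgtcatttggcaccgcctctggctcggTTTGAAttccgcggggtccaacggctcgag
Espl1: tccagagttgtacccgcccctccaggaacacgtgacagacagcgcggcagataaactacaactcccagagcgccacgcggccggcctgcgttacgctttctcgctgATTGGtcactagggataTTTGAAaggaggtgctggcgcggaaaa
Ube2c: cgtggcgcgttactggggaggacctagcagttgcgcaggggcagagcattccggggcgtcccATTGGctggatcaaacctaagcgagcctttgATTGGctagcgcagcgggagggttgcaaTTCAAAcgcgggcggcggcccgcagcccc

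In each of the 3 the CHR began 30, 27 and 29 bases before the start, in the order above. Prc1, a microtubule bundler of the midzone, changed by -2.59 ± 0.26, Espl1, the separase gene, by -2.58 ± 0.21 and Ube2c, an enzyme of the anaphase promoting complex, by -2.36 ± 0.22.

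Most glycolysis genes were higher in Th17 cells. Of 24 tested glycolysis entries, 17 were higher in Th17 and 1 in Treg cells, with a median log2 fold change of -0.94. Hk2, hexokinase 2, was at 94.7 and 90.8 CPM in Th17 and 33.5 and 28.2 CPM in Treg libraries, and Ldha, lactate dehydrogenase A, at 1256 and 1093 against 551 and 626 CPM. Both were higher in every Th17 library, and the log2 fold change of Hk2 was -1.59 ± 0.18. Pgam1, a mutase of the lower pathway, changed by -1.47 ± 0.17 and Pkm, the pyruvate kinase gene, by -1.31 ± 0.19. Gapdh was called too (-1.74 ± 0.20) but at a low level, 35.3 and 38.7 against 12.7 and 9.51 CPM, and it has many near-identical pseudogenes, so its level is uncertain. Pdk1, a pyruvate dehydrogenase kinase gene, was the member higher in Treg cells (1.28 ± 0.20). The glucose transporter genes Slc2a1 (-0.67 ± 0.16) and Slc2a3 (-0.98 ± 0.25) were higher in Th17 cells, and the call of Slc2a3 ended without Treg library 5 (edgeR adjusted p = 0.0606) or Th17 library 5 (0.155).

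Of 28 nuclear genes of the respiratory chain, 0 were called by edgeR, with 2 higher in Treg and 1 higher in Th17 cells at an unadjusted p under 0.05. DESeq2 called 1, Atp5b of the ATP synthase, higher in Th17 cells (adjusted p = 0.0319), and limma-voom 0. Without either naive library edgeR called 3, of which 2 were higher in Treg and 1 higher in Th17 cells. The fit of only the 4 libraries called 1 in each direction, and scaling by total count called 1, higher in Th17 cells. The median was -0.01, and the list's summed level was 4022 and 4333 CPM in Treg and 4728 and 4196 CPM in Th17 libraries, which overlapped. The 95% interval of Atp5b in edgeR ran from -0.82 to 0.02, within 2-fold. The strip plot sets these lists beside each other.

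**Figure D4:**
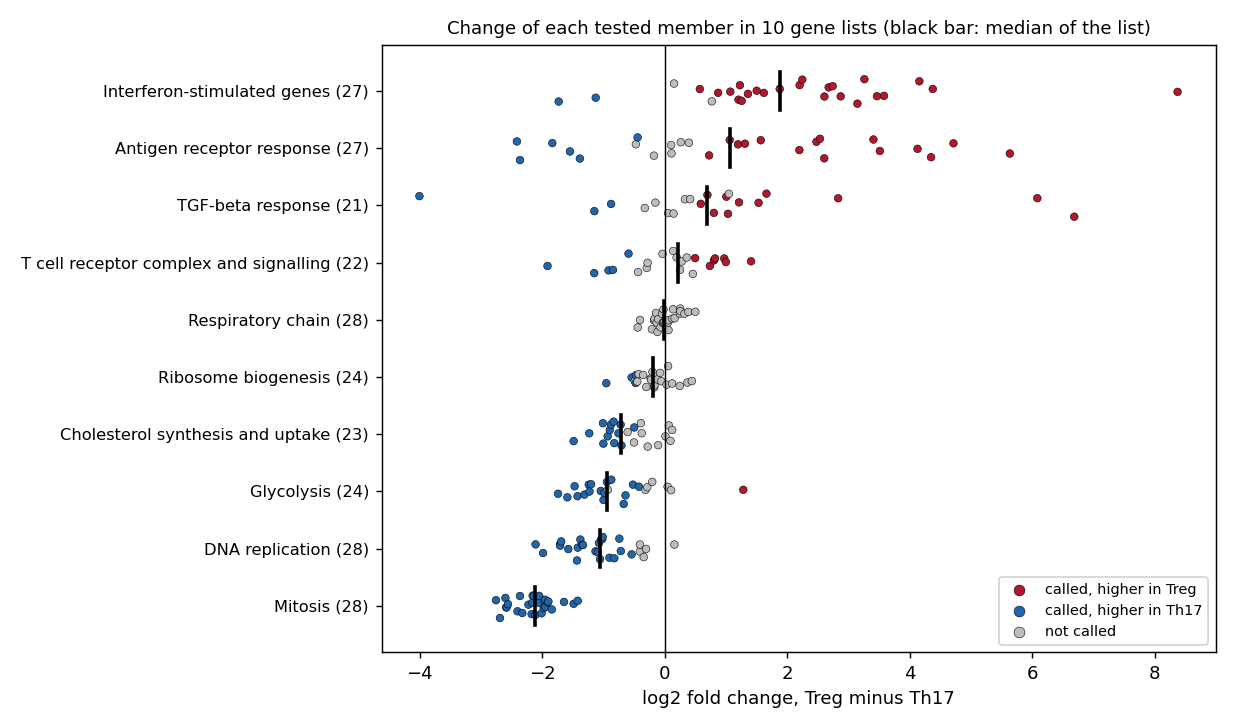
Log2 fold change (Treg minus Th17) of each tested member of 10 gene lists, with the list median as a black bar, red and blue points for called members and grey points for members not called. All 28 mitosis genes lie below 0 and most interferon-stimulated genes above it, while the 28 respiratory chain genes sit between -0.44 and 0.50 in grey.

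Oxygen-dependent genes were split, with 5 of 19 hypoxia response genes higher in Treg (26.3%) and 6 in Th17 cells (31.6%). The shares of all genes tested were 19.9% and 20.3%. Hif1a, the oxygen-regulated factor, was 403 and 559 CPM in Th17 and 183 and 177 CPM in Treg libraries, and Egln3, a prolyl hydroxylase gene, 188 and 198 against 15.7 and 14.8 CPM. Both were higher in Th17 cells, whereas Vegfa (1.02 ± 0.18) and Epas1 (HIF-2alpha, 3.97 ± 0.45, or 3.39 without Treg library 1) were higher in Treg cells.

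Cholesterol genes leaned to Th17 cells. In cholesterol synthesis and uptake, 13 of 23 tested genes were higher there and 0 higher in Treg cells, also at an unadjusted p under 0.05 and by DESeq2 and limma-voom. The count rested on single libraries, at 5 without Treg library 1 and 7 without Th17 library 1. Pmvk, a kinase of the mevalonate pathway, changed by -1.49 ± 0.21 and Hsd17b7, a late reductase of sterol synthesis, by -1.23 ± 0.23. In fatty acid metabolism 7 of 22 were higher in Th17 (31.8%) and 3 in Treg cells (13.6%), against 20.3% and 19.9% of all genes tested. Scd2, a stearoyl-CoA desaturase, was at 2106 and 2101 CPM in Th17 and 235 and 422 CPM in Treg libraries. Fads2, which desaturates longer fatty acids, was at 107 and 87.8 against 2.67 and 4.59 CPM. Neither overlapped between types, like 74.0% of all genes tested. Elovl6, an elongase (1.80 ± 0.21), and Cpt1a, which admits fatty acids to mitochondrial oxidation (0.96 ± 0.19), were higher in Treg cells, and Fasn was not called, with an interval from -0.51 to 0.39.

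In amino acid and one-carbon metabolism 9 of 24 genes were higher in Th17 and 3 in Treg cells. Asns, asparagine synthetase, was at 134 and 102 CPM in Th17 and 22.8 and 35.6 CPM in Treg libraries, and Psat1 of serine synthesis changed by -0.97 ± 0.18. Ddit3, which encodes the stress factor CHOP, was higher in Treg cells (1.04 ± 0.19), and the transporter gene Slc38a2 was too (0.83 ± 0.18) except without Treg library 1 (edgeR adjusted p = 0.0605), where 1 member in place of 3 was called higher in Treg cells. Ribosome biogenesis had 4 of 24 higher in Th17 (16.7%, against 20.3% of all genes tested) and 0 higher in Treg cells. At an unadjusted p under 0.05 in edgeR, 1 was higher in Treg cells, and DESeq2 and limma-voom called 0 higher there. The count of 4 fell to 1 without Treg library 1 or Th17 library 1 and to 2 without Treg library 5. Utp20, a processome component, changed the most (-0.95 ± 0.18).

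**Figure D5:**
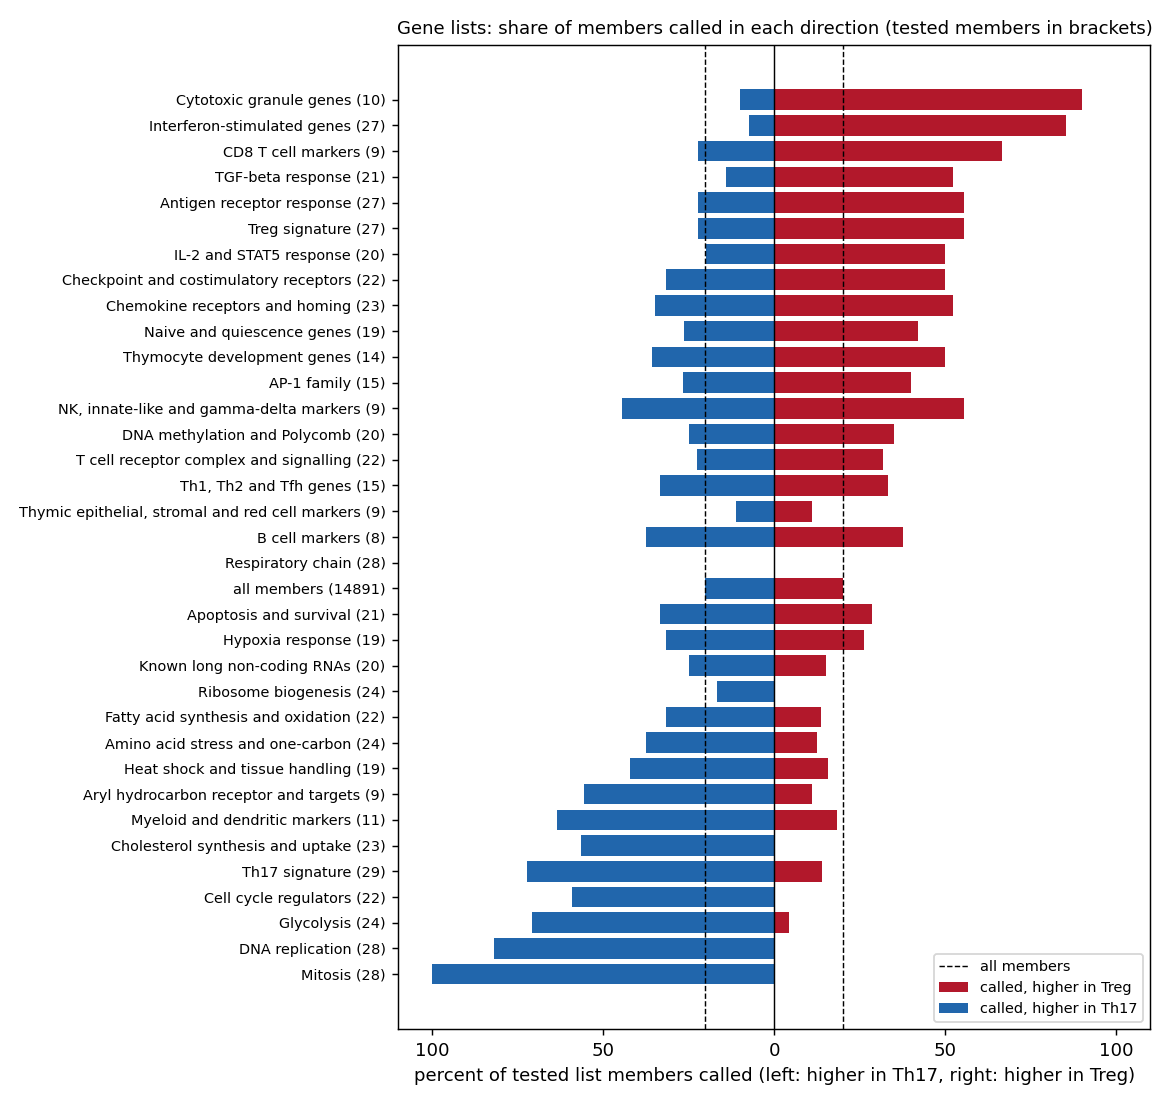
Share of tested members called higher in Treg (right, red) and higher in Th17 cells (left, blue) for each list with at least 8 tested members, beside all 14891 genes tested (dashed lines at 19.9% and 20.3%). Mitosis, DNA replication and glycolysis stand at the Th17 end, cytotoxic granule and interferon-stimulated genes at the Treg end. The respiratory chain has no bar. Of the cytotoxic granule genes 4 of 10, and of the interferon-stimulated genes 3 of 27, passed the count rule only through Treg libraries.

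Interferon-stimulated genes encode antiviral and immunity proteins induced by interferon receptors. Of 27 tested, 23 were higher in Treg and 2 higher in Th17 cells, with a median log2 fold change of 1.88. The immunity-related GTPase gene Igtp was at 418 and 453 CPM in Treg and 65.1 and 77.6 CPM in Th17 libraries, and Irgm1, of the same family, at 147 and 162 against 18.5 and 29.7 CPM. Zbp1, a sensor of Z-form nucleic acids, was at 35.7 and 46.4 against 4.96 and 6.21 CPM. All 3 were higher in both Treg libraries, by 2.61 ± 0.17, 2.68 ± 0.21 and 2.88 ± 0.20 on the log2 scale. Several classical members were low, such as Ifit1 at 2.10 and 2.70 against 0.211 and 0.318 CPM, and Rsad2 and Mx1 did not pass the count rule. Irf9 (1.21 ± 0.16) and Stat2 (0.57 ± 0.16) were higher in Treg cells, and the call of Stat2 ended without Treg library 1 (edgeR adjusted p = 0.0829), Treg library 5 (0.0541) or Th17 library 1 (0.156). Oas3 (-1.73 ± 0.32, or -1.13 without Th17 library 5) and Bst2 (-1.13 ± 0.19), a tether of budding virus, were higher in Th17 cells.

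Their promoters are shown for the interferon-stimulated response element, searched as TTTC, any 2 bases and TTTC on both strands. It was found in 14 of the 21 listed genes with a window (66.7%) and in 381 of the 10145 genes tested that had one (3.76%). Absence of a match says only that these letters are not in the window. The genes shown were picked by size of change from members higher in Treg cells with the element in the bases printed. They thus carry it by choice. Of the 27 tested genes of the list, 3 passed the count rule only through Treg libraries. Ifit3 and Ifit1 are among these, so their direction was fixed by that rule. The 150 bases before the RefSeq start (GRCm38.p6, plus strand, 5′ to 3′) carry the element in capitals for Gbp7 (chr3:142530186-142530335), Ifit3 (chr19:34583379-34583528) and Ifit1 (chr19:34640739-34640888).
Gbp7: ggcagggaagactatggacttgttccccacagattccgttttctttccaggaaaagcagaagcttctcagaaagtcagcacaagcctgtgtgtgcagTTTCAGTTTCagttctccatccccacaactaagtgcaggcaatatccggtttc
Ifit3: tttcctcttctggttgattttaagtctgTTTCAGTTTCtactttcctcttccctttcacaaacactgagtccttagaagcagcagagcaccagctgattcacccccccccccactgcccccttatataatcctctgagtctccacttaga
Ifit1: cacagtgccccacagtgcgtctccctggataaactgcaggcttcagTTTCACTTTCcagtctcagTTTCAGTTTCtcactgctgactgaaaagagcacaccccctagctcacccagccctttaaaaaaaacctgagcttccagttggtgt

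The guanylate-binding protein gene Gbp7 was at 30.5 and 54.6 CPM in Treg and 1.06 and 3.03 CPM in Th17 libraries. Its log2 fold change was 4.38 ± 0.36, or 5.32 without Th17 library 5. Ifit3, whose product binds viral RNA complexes, was at 3.91 and 5.78 against 0.211 and 0.318 CPM.

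Cytotoxic granule genes were higher in Treg cells for 9 of 10 tested members, with 1 higher in Th17 cells, which became 0 without Treg library 5 or Th17 library 1. Ctsw, the cathepsin W gene, was at 663 and 667 CPM in Treg and 98.3 and 115 CPM in Th17 libraries, a log2 fold change of 2.64 ± 0.17. The granzyme gene Gzmb was at 14.4 and 14.3 against 0.264 and 0.318 CPM, and the granule membrane gene Nkg7 at 43.2 and 65.4 against 0.370 and 0.318 CPM. Both were close to absent from Th17 libraries. Of the 10 tested granule genes, 4 passed the count rule only through Treg libraries, so their direction was fixed by that rule. Nkg7 also stands in the list of CD8 T cell markers, of which 6 of 9 were higher in Treg and 2 in Th17 cells (1 without Treg library 5), with a summed level of 188 and 196 CPM in Treg and 163 and 198 CPM in Th17 libraries. Cd8a was at 9.13 and 13.3 against 2.48 and 2.87 CPM, and Cd8b1 was not called (8.96 and 10.6 against 8.66 and 10.5 CPM). Of the 9 tested CD8 markers, 4 passed the count rule only through Treg libraries. The part of CD8 cells in the granule values was not tested.

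Survival genes differed in both directions. Of 21 tested, 6 were higher in Treg (28.6%) and 7 in Th17 cells (33.3%), against 19.9% and 20.3% of all genes tested. Bcl2, which blocks mitochondrial death, was at 645 and 655 CPM in Treg and 185 and 209 CPM in Th17 libraries. Its relative Bcl2l1, which encodes Bcl-xL, was at 24.7 and 23.8 against 219 and 192 CPM. The libraries separated in opposite directions, with log2 fold changes of 1.72 ± 0.18 and -3.08 ± 0.16. Casp8, the death receptor caspase, was higher in Treg cells (1.03 ± 0.16) and the BH3-only gene Pmaip1 in Th17 cells (-1.47 ± 0.17).

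Enzymes of DNA methylation and Polycomb were 7 to 5 of 20. The methylcytosine oxidase genes Tet3 (1.34 ± 0.20) and Tet2 (0.82 ± 0.19) and the de novo methyltransferase gene Dnmt3a (1.19 ± 0.18) were higher in Treg cells. The maintenance pair Dnmt1 (-0.91 ± 0.16) and Uhrf1 (-1.92 ± 0.19) and the histone H3 lysine methyltransferase gene Ezh2 (-1.18 ± 0.16) were higher in Th17 cells.

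Among 870 tested genes that the authors' table places in a transcription factor family, 225 were higher in Treg cells (25.9%) and 138 higher in Th17 cells (15.9%). In the C2H2 zinc finger family it was 97 (23.0%) and 38 (9.0%) of 421. The shares of all genes tested were 19.9% and 20.3%. Besides Foxp3, the largest changes among factors above the median level of all genes toward Treg cells were Klf2, Klf3, Nr4a3 and the zinc finger gene Zfp827 (4.17 ± 0.22), and toward Th17 cells included Ahr, Batf and Rora. Chosen after their values were seen, Gfi1, a repressor of the zinc finger family, was at 105 and 92.4 CPM in Treg and 1.53 and 0.690 CPM in Th17 libraries, Gata1 at 53.9 and 74.5 against 2.43 and 1.27 CPM and Lhx6 at 32.5 and 52.7 against 0.792 and 0.531 CPM. Each lay above the Th17 libraries in both Treg libraries. Nfkb2 (-1.60 ± 0.17) and Relb (-1.30 ± 0.17), partners in the alternative NF-kappaB pathway, were higher in Th17 cells.

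Some of the largest differences lay outside these lists. On the Treg side stood Tnfsf10, the gene of the death ligand TRAIL (6.05 ± 0.30), Rgs16, a brake on G protein signals (5.50 ± 0.19), and Atp1b1, a sodium pump subunit at 964 and 752 against 33.1 and 12.8 CPM. Atp1b1 differed between the Th17 libraries, and its log2 fold change of 5.22 ± 0.36 became 6.07 without Th17 library 1. On the Th17 side stood the neighbouring genes Tmem176a (-6.23 ± 0.28) and Tmem176b (-5.39 ± 0.27), whose products form ion channels of intracellular membranes. The galectin gene Lgals1 (-4.00 ± 0.23), the RNA editing enzyme gene Adarb1 (-4.43 ± 0.19) and Cpox of heme synthesis (-4.24 ± 0.19) followed. Ly6a, the Sca-1 antigen gene, was at 332 and 534 CPM in Th17 and 8.06 and 6.65 CPM in Treg libraries and belongs to a family of close copies, so its counts may be shared.

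There were 63 genes with 0 counts in both Th17 libraries and at least 10 in each Treg library, and 87 of the reverse kind. Of these, chosen after their values were seen, the chemokine gene Xcl1 was at 99.7 and 138 CPM in Treg libraries, at least 749-fold higher, and the histamine receptor gene Hrh3 at 33.3 and 50.4 CPM, at least 263-fold higher. The reverse held for Ermn, at 94.5 and 167 CPM in Th17 libraries, and Nos2, the inducible nitric oxide synthase gene, at 28.4 and 14.9 CPM. These were at least 786-fold and 130.2-fold higher in Th17 cells. The nuclear lamina gene Lmna, also chosen after its values were seen, was at 444 and 376 CPM in Th17 and 0.511 and 0.108 CPM in Treg libraries.

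The series is about a long non-coding RNA of Treg cells, and 1260 long non-coding RNA genes were tested here. Of these, 222 were higher in Treg (17.6%) and 152 higher in Th17 cells (12.1%), against 20.9% and 22.9% of 12085 protein coding genes. No test of that difference was made, and 135 and 114 of the long non-coding genes passed the count rule only through Treg or only through Th17 libraries. Coordinates are those of the deposited table, on mm10. Gm35037 (chromosome 7, 3451357 to 3475020, plus strand) had 6.18 and 8.54 CPM in Treg libraries and 0 counts in Th17 libraries, at least 46.3-fold higher. A630091E08Rik (chromosome 7, 98543320 to 98562990, minus strand) had 4.31 and 4.81 CPM and 0 counts, at least 28.7-fold. Gm32391 (chromosome 1, 164462442 to 164463989, plus strand), 3.40 and 2.05 CPM against 0 counts, lies 4.09 kb from Atp1b1, described above. These intergenic genes were chosen among called genes whose libraries did not overlap, so detection in both Treg libraries was fixed by the choice. 2610204G07Rik (chromosome 13, 104684931 to 104694994, plus strand) overlaps Cwc27 on the opposite strand, and it was at 18.2 and 12.8 CPM in Treg libraries with 1 count in Th17 libraries, a ratio of 582 (exact 95% interval 104 to 23044). The sources used here do not tell whether counting used strand, so reads of the overlapping genes cannot be told apart, and Cwc27 itself was not called (-0.09).

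On the Th17 side, Gm15987 (chromosome 6, 128951204 to 128975029, minus strand) was at 31.1 and 47.1 CPM with 0 counts in Treg libraries, at least 235-fold higher. It overlaps Clec2g on the opposite strand, which was at 6.60 and 10.5 CPM in Th17 libraries and 0 counts in Treg libraries, so the same limit applies. Gm29101 (chromosome 1, 91822515 to 91823985, plus strand) was at 6.50 and 5.94 CPM and Gm49180 (chromosome 14, 45056497 to 45102094, minus strand) at 5.07 and 5.10 CPM, both with 0 counts in Treg libraries. 2900052L18Rik was at 10.6 and 14.0 CPM with 2 counts in Treg libraries, a ratio of 221 (exact 95% interval 60.9 to 1834). Detection of all 4 in both Th17 libraries was fixed by the same choice.

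Of 20 known long non-coding RNAs, 3 were higher in Treg and 5 in Th17 cells, against 19.9% and 20.3% of all genes tested. Flicr, which overlaps Foxp3 in coordinates on the same strand, was at 11.7 and 9.73 CPM in Treg and 0.370 and 0.637 CPM in Th17 libraries. Its log2 fold change was 4.40 ± 0.42, and reads in the part it shares with Foxp3 could be assigned to either gene. Mir155hg, the host of miR-155, was at 61.8 and 55.9 CPM in Th17 and 21.6 and 12.5 CPM in Treg libraries (-1.79 ± 0.24), and Mir17hg, the host of the miR-17 cluster, was higher in Treg cells (1.08 ± 0.20). Malat1 and Neat1 were abundant and not called, with 95% intervals from -0.23 to 0.94 and from -0.23 to 0.51. Without Treg library 5, Th17 library 1 or Th17 library 5, 3 genes in place of 5 were called higher in Th17 cells.

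Markers of other cells were read beside these results. In the B cell list 3 of 8 tested genes were higher in Treg and 3 in Th17 cells (1 without Treg library 5), with a summed level of 648 and 512 CPM in Treg and 37.3 and 27.0 CPM in Th17 libraries. Nearly all of that sum was Ighm, the immunoglobulin mu constant gene, at 623 and 492 against 29.3 and 18.4 CPM. The defining B cell gene Ms4a1 had at most 1 count in any of these 4 libraries. Higher in Th17 cells were Pax5 (-5.16), Ebf1 (-2.85) and Igkc (-2.10), of which DESeq2 did not call Igkc (adjusted p = 0.258). Of the 8 tested genes, 2 passed the count rule only through Treg and 3 only through Th17 libraries. In the myeloid and dendritic list 2 of 11 were higher in Treg (1 without Treg or Th17 library 5) and 7 in Th17 cells, at 14.2 and 17.6 against 193 and 216 CPM. Its leading gene Cd74, the class II invariant chain, was at 159 and 168 CPM in Th17 and 3.06 and 3.19 CPM in Treg libraries, and Csf1r and Itgax had at most 4 counts in any of the 4 libraries. The class II gene H2-Ab1 was at 5.76 and 14.5 CPM in Th17 libraries. Of the 11 tested genes of this list, 2 passed the count rule only through Treg and 4 only through Th17 libraries.

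Natural killer and gamma-delta markers were 5 to 4 of 9, at 28.4 and 33.2 CPM in Treg and 39.7 and 57.0 CPM in Th17 libraries, with Ncr1 at 0 counts in all 4. Of the 9, 3 passed the count rule only through Treg and 2 only through Th17 libraries. The gamma-delta constant gene Trdc was at 11.2 and 11.6 against 1.37 and 1.01 CPM. The receptor gene Klrd1 was at 3.91 and 4.27 against 22.2 and 37.9 CPM. Among epithelial, stromal and red cell markers 1 of 9 was higher in each type, with 3 higher in Treg cells without Th17 library 1, and 0 higher in Th17 cells without Treg library 1 or Th17 library 1 but 2 without Th17 library 5. Epcam, an adhesion molecule gene, was at 79.8 and 68.0 CPM in Treg libraries and 1 count in Th17 libraries, a ratio of 2787 (exact 95% interval 499.7 to 110102), while the thymic epithelial factor Foxn1 was at 0 counts and Krt5 and Krt14 had 18 and 32 counts in Treg library 1 alone among Treg libraries. Of thymocyte genes, 7 of 14 were higher in Treg and 5 in Th17 cells (3 without Treg library 5), among them Sox4 (2.92 ± 0.20) for Treg and Notch1 (-1.78 ± 0.19) for Th17 cells, while Rag2 and Ptcra, genes of T cell precursors, had at most 4 counts in any library. Dntt, the terminal transferase gene of precursors, was at 1.69 and 7.85 CPM in Th17 and 0.227 and 0.216 CPM in Treg libraries, a log2 fold change of -4.38 ± 0.73 that became -5.10 without Th17 library 1 and -2.89 without Th17 library 5. The recombinase gene Rag1 was at 2.38 and 2.22 CPM in Treg and 0.317 and 0 CPM in Th17 libraries. Its log2 fold change of 3.80 ± 0.83 became 8.28 without Th17 library 1 and 2.83 without Th17 library 5, and DESeq2 did not call it (adjusted p = 0.257). For both genes the libraries of the types did not overlap, which held for 74.0% of all genes tested. The part of other cells in the differences between types was not tested.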

How the data were processed

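Libraries of 3 cell types were prepared from column-purified RNA by SMARTER chemistry, per the labels' protocols. Cutadapt, STAR, DESeq2 and mm10 are named in the submitters' processing notes. The sources used here do not give the counting tool, its strand setting or versions. The authors deposited whole-number counts per gene with gene lengths. Of the gene names, 27 had become dates and were resolved by gene ID, and 6 other columns of per-library values were not used. Library numbers in the table (1 and 5) are not those of the titles, so columns were mapped to cell types only.

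Counts were fitted with edgeR 4.0.16 (R 4.3.3; quasi-likelihood test with TMM scaling) in 1 model of all 6 libraries, tested on simulated data first, with DESeq2 1.42.0 and limma 3.58.1 (voom) among the alternatives. The rule on counts was at least 10 in 2 of the 4 libraries. Genes with 0 counts in a type got a lower bound from 3 counts per library, and those with 1 to 3 a ratio with an exact 95% interval. The members and lists were chosen with earlier results of these data known. Named are fixed lineage genes, the 10 largest changes per direction among genes above the median level, at most 4 called members of a list in each direction, by size, 6 long non-coding RNA genes per direction and the 6 most abundant genes. The 10 largest and the long non-coding RNA genes came from called genes whose libraries did not overlap, the latter with at least 50 summed counts. A further 69 genes, well-known list members and others, were added after their values were seen. A few list members are not reported here.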

Additional observations from a re-analysis of the deposited data

How the results depend on the processing

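Of 308 named genes, 282 were called, and 211 had the same direction and call under all 16 alternatives. No gene called in the main comparison was called in the opposite direction under any alternative. The 5995 calls became 2120 (951 higher in Treg, 1169 in Th17 cells) when a difference of at least 2-fold was tested. Leaving out 1 library gave 4154 to 6521 calls, with 1962 to 3231 higher in Treg and 2140 to 3290 higher in Th17 cells; the lowest count higher in Treg cells was without Th17 library 1. Deviations of same-numbered libraries correlated at 0.0427 between Treg and Th17, 0.343 between Treg and naive and -0.00943 between Th17 and naive libraries. Not every pair of types was over 0.1, so the numbers were not taken to pair samples; the replicate block gave 6288 calls. DESeq2 called 5616, limma-voom 6215 and the fit of only the 4 libraries 6536. Scaling by total count gave 5897 calls, 45.1% of them higher in Treg cells against 49.5%, and a median log2 fold change of -0.04. Every change of sign was in a gene not called. The log2 fold change ran from -0.21 to 0.087 for Actb, -0.22 to 0.053 for Bach2, -0.10 to 0.18 for Cd8b1, -0.50 to 0.19 for Entpd1, -0.30 to 0.23 for Fasn and -0.13 to 0.093 for Foxo1 with 1 library left out. For other genes it ran from -0.29 to 0.28 for Lag3, -0.048 to 0.23 for Myc, -0.21 to 0.34 for Tnfrsf18 and -0.16 to 0.11 for Trac. Scaling by total count gave -0.027 for Cd8b1 and -0.019 for Tnfrsf18. The cause was not tested. The 2 libraries a type limit the precision.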
